A study of Mus musculus with 20 samples.

Results

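Chemokines are small secreted proteins that draw white blood cells along a gradient, and 10 of their genes were followed here across 20 mouse livers: Ccl2, Ccl5, Ccl6, Ccl9, Ccl24, Cxcl1, Cxcl9, Cxcl10, Cxcl12 and Cxcl13. They were taken by name from the deposited tables, which hold 28100 genes in all. The choice was made with earlier results of the PKLR against GFP comparison in view, in which Ccl9 was lower with PKLR. Values of these genes in that comparison are therefore given as a description without a test, while the knockdown comparison was tested.

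The study asked about fatty liver disease and the gene Pklr, whose product is the pyruvate kinase of liver and red blood cells. Male C57BL/6J mice received 1 of 4 AAV8 vectors by vein at 8 weeks of age, and livers were taken at 25 weeks. In the knockdown experiment 5 livers were given a Pklr hairpin RNA (shPKLR) and 5 a firefly luciferase hairpin (shLUC). In the overexpression experiment 5 livers carried the Pklr cDNA (PKLR) and 5 carried GFP. The hairpin against Pklr and its cDNA were driven by the thyroxine binding globulin promoter, which is active in hepatocytes, while the description names no promoter for the control vectors. Every mouse was kept on the diet labelled HF/HS, and every group, controls included, carried a vector.

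Total RNA of frozen whole liver was sequenced. The depth was between 29933820 and 45413803 counts for 19 libraries, while shPKLR replicate 4 stood apart with 167891680. Pklr followed the vectors, at 52.9 ± 22.5 CPM in shPKLR livers and 464 ± 112 CPM in shLUC livers (SD, n = 5 each). It was at 771 ± 220 CPM in PKLR livers and 122 ± 35.3 CPM in GFP livers (SD, n = 5 each). Summed hepatocyte markers, led by Alb, took between 74280 and 131500 CPM in every liver. CPM means counts per 1e6 counts of the library after TMM scaling, and each experiment was scaled on its own. In bulk tissue, fewer cells of a type and less RNA per cell cannot be told apart.

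As background, chemokines bind receptors on the surface of leukocytes, and most receptors take several ligands. Kupffer cells, the resident macrophages of the liver, and hepatocytes, stellate cells and sinusoidal endothelium are all known to make some of them. Inflammatory members such as Ccl2 and Cxcl1 are induced through NF-kB, Cxcl9 and Cxcl10 by interferons, and homeostatic members such as Cxcl12 and Cxcl13 place cells within tissue. Ccl6 and Ccl9 belong to a group of CC chemokines found in rodents.

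The genes lie in clusters. Ccl5 (ENSMUSG00000035042), Ccl9 (ENSMUSG00000019122) and Ccl6 (ENSMUSG00000018927) are consecutive chemokine genes on the minus strand of GRCm38 chromosome 11, at chr11:83525778-83530518, chr11:83572919-83578636 and chr11:83587882-83593087. Ccl2 lies on the same chromosome at chr11:82035571-82037453. Cxcl9 and Cxcl10 are neighbours on the minus strand of chromosome 5, at chr5:92321347-92328079 and chr5:92346638-92348889. Cxcl1 (chr5:90891241-90893115), Cxcl13 (chr5:95956951-95961068) and Ccl24 (chr5:135569937-135573049) are on chromosome 5 too, and Cxcl12 is at chr6:117168535-117181367. All 10 are protein-coding.

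The RefSeq promoter table of GRCm38.p6 held 7 of the 10 genes. The promoters of the neighbours Ccl9 and Ccl6 (chr11:83578587-83578886 and chr11:83593038-83593337, minus strand) are shown because the first is the member whose PKLR and GFP livers did not overlap, and the second is its neighbour, whose groups did. Those of Cxcl10 and Cxcl9 (chr5:92348840-92349139 and chr5:92328030-92328329, minus strand) are shown because these 2 genes varied most alike. Each runs 5′ to 3′ across the transcription start, and capitals mark matches to the motifs named below.
Ccl9: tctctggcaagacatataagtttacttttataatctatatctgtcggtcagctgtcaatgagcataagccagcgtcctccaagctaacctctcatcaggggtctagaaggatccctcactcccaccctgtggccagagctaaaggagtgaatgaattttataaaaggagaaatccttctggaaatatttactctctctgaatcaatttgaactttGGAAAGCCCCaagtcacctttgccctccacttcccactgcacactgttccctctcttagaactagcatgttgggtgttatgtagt
Ccl6: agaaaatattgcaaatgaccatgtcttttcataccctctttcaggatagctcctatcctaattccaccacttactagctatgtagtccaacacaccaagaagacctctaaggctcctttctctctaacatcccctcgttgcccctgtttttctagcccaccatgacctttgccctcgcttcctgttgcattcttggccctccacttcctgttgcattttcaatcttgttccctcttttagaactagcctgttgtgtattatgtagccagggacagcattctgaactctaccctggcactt
Cxcl10: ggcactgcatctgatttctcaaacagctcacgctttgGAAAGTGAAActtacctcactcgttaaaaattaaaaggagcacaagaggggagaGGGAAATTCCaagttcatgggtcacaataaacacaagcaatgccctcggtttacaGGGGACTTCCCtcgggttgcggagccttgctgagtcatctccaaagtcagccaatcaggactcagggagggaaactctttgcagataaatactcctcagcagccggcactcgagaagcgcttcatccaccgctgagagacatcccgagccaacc
Cxcl9: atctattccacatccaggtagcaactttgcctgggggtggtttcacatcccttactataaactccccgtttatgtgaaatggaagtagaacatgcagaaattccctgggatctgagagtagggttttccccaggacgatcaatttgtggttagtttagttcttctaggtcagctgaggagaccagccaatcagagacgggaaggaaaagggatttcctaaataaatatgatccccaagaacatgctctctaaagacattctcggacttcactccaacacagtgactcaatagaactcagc

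Positions are counted from 0 at the start base, and both strands were searched. The interferon-stimulated response element core (TTTC, any 2 bases, TTTC) was found in 3.44% of 32851 promoters of the same length. The core of the STAT gamma-activated site, TTCNNNGAA, was in 8.3% of them, the NF-kB consensus in 8.46%, and the PU.1 core GAGGAAG in 13.63%. Cxcl10 held the interferon element from -213 to -204 on the strand opposite to the gene. It also held NF-kB matches from -159 to -150, from -104 to -95 and from -103 to -94, of which the last 2 overlap. Ccl9 held 1 NF-kB match, from -35 to -26 on the strand opposite to the gene. Cxcl1 held NF-kB matches from -71 to -62 and from -70 to -61, which overlap. No motif was found in the windows of Ccl6, Cxcl9, Cxcl12 or Cxcl13, which says only that these letters are not there. Ccl9 and Ccl6 shared a longest run of 13 bases, GCCCTCCACTTCC, and Cxcl10 and Cxcl9 one of 11 bases, CAGCCAATCAG.

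Ccl9, a macrophage-derived ligand of the receptor Ccr1 in mice, averaged 50.4% of its GFP level in PKLR livers. It was at 23.6, 24.3, 22.7, 21.9 and 30.3 CPM in PKLR livers, against 64.2, 42.0, 47.1, 44.7 and 45.7 CPM in GFP livers. Every PKLR liver lay below every GFP liver. The mean was 24.6 ± 3.32 CPM in PKLR livers and 48.7 ± 8.82 CPM in GFP livers (SD, n = 5 each), with a log2 fold change of -0.99 (SE 0.12). With each library left out in turn the log2 fold change ran between -0.87, without GFP replicate 1, and -1.07, without PKLR replicate 5. The choice of genes used this same comparison, so the range is a description and no separate support.

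With shPKLR the gene was spread more widely than with shLUC, and its groups overlapped. It was at 22.6, 14.2, 35.5, 24.7 and 26.1 CPM in shPKLR livers, against 19.3, 24.3, 22.7, 23.5 and 21.1 CPM in shLUC livers. The shPKLR livers reach both above and below all shLUC livers. The log2 fold change was 0.15 (SE 0.19), with an adjusted p of 0.697 by edgeR's quasi-likelihood test with Benjamini-Hochberg adjustment over 15611 genes. It was -0.01 without shPKLR replicate 3 and 0.29 without shPKLR replicate 2. Set side by side, the GFP livers held the high values of Ccl9, and the PKLR, shPKLR and shLUC groups had like means of 24.6, 24.6 and 22.2 CPM. These levels come from 2 tables scaled separately, and experiment and vector type cannot be told apart between them.

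**Figure D1:**
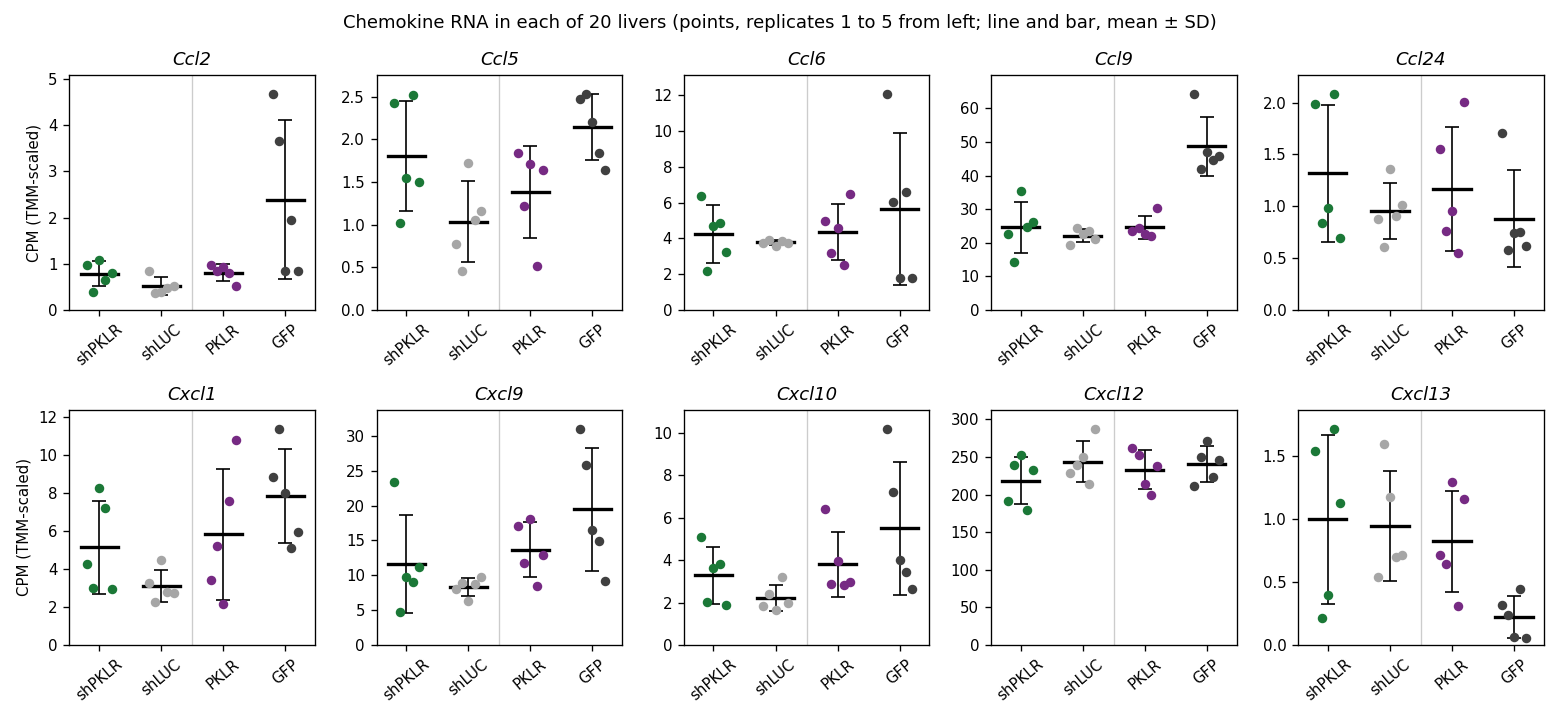
Level in CPM (vertical axis, linear from 0) of each of the 10 chemokine genes in every liver, grouped on the horizontal axis as shPKLR, shLUC, PKLR and GFP. Points are the 5 livers of a group, and the line and bar are mean ± SD. For Ccl9 the 5 GFP livers sit at 42.0 CPM or above and all PKLR livers at 30.3 CPM or below.

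Over the 10 genes in the PKLR against GFP comparison, 8 log2 fold changes were negative and 2 positive, with a median of -0.47. Over all 15842 genes tested the median was 0.01, and 51.05% were positive. EdgeR called 2.03% of all genes at an adjusted p of 0.05 in this comparison, and no call is given for the 10. Ccl9 alone had all PKLR livers below all GFP livers, as 1.93% of all genes had, and none of the 10 had all PKLR livers above, as 3.1% of all genes had. These counts rest on the comparison that the choice used. All 10 genes passed the filter on low counts in both experiments, though Cxcl13 was over its limit of 0.285 CPM in only 4 PKLR and 2 GFP livers. Without GFP replicate 1 the median was -0.23 and 7 of the 10 were negative.

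In the knockdown comparison 9 of the 10 log2 fold changes were positive, with a median of 0.48, and 1 was negative. Over all 15611 genes the median was 0.02 and 52.75% were positive. None of the 10 passed an adjusted p of 0.05 in edgeR, where 0.00641% of all genes did, a single gene. DESeq2 and limma-voom called none of the 10 either. An unadjusted p under 0.05 in edgeR was reached by 2 of the 10 and by 15.0% of all genes. None had shPKLR livers all above or all below the shLUC livers, as 1.24% and 2.03% of all genes had. Of 13 Kupffer cell markers 12 also had a positive fold change with shPKLR, with a median of 0.44. EdgeR and DESeq2 called none of these markers, and 4 had an unadjusted p under 0.05 in each. With PKLR 6 of the 13 were positive, with a median of -0.05. The part of these cells in the chemokine values was not tested. Without shPKLR replicate 1, 7 of the 10 were positive and the median was 0.25. Without shPKLR replicate 4, the library of greatest depth, 8 were positive and the median was 0.37.

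**Figure D2:**
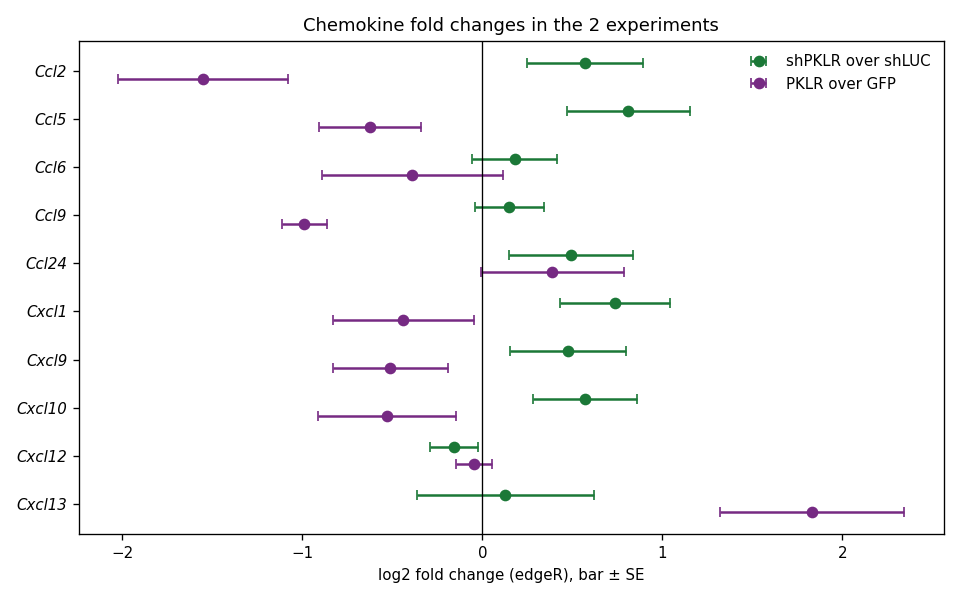
Log2 fold change (horizontal axis) with its SE for each chemokine gene, for shPKLR over shLUC (green) and PKLR over GFP (purple). Ccl9 is at 0.15 and -0.99, Ccl2 at 0.57 and -1.55, and Cxcl13 at 0.13 and 1.83.

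Among the inflammatory CC ligands, Ccl2, which recruits monocytes through Ccr2, had the lowest fold change of the 10 with PKLR. It was at 0.969, 0.854, 0.929, 0.794 and 0.521 CPM in PKLR livers, against 4.67, 3.66, 0.843, 1.95 and 0.837 CPM in GFP livers. GFP replicates 1, 2 and 4 stood above all PKLR livers and the other 2 lay among them. The PKLR mean was 34.0% of the GFP mean, and the log2 fold change was -1.55 (SE 0.47), or -1.16 without GFP replicate 1. In the knockdown experiment Ccl2 was at 0.978, 0.392, 1.08, 0.657 and 0.809 CPM in shPKLR livers, against 0.841, 0.368, 0.401, 0.484 and 0.526 CPM in shLUC livers. The ranges overlapped, with a log2 fold change of 0.57 (SE 0.32; edgeR adjusted p = 0.393).

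Ccr2, the receptor of Ccl2 on inflammatory monocytes, was at 1.25 ± 0.319 CPM in PKLR livers and 3.01 ± 1.75 CPM in GFP livers (SD, n = 5 each). Its log2 fold change of -1.26 (SE 0.37) did not pass in edgeR (adjusted p = 0.104) and passed in DESeq2 (adjusted p = 0.0162). The sum of 13 markers of monocytes and lipid-associated macrophages was 62.4, 51.9, 63.8, 65.9 and 53.4 CPM in PKLR livers, against 156, 121, 53.3, 100.2 and 53.1 CPM in GFP livers. GFP replicates 1, 2 and 4, which were high for Ccl2, were also high for this sum. Of its 11 tested genes 1 had a positive fold change, and the median was -1.23. An unadjusted p under 0.05 in edgeR was reached by 6 of the 11 and by 18.8% of all genes. DESeq2 called 5, against 1107 of all 15842 genes, and limma-voom none. In edgeR only Gpnmb passed (log2 fold change -3.55, SE 0.75; edgeR adjusted p = 0.0427). With single libraries left out that p ran from 0.0207 to 0.0975, and it passed in 2 of 10 such fits. In the knockdown experiment the sum ran from 52.6 to 87.9 CPM in shPKLR livers and from 43.0 to 61.9 CPM in shLUC livers, with 11 of 11 tested genes positive, a median of 0.64 and none called by edgeR. No gene of the list was at 0 throughout a group. The part of these cells in the Ccl2 values was not tested.

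Ccl5, which draws T cells and monocytes, had a positive fold change with shPKLR and a negative one with PKLR, as did Ccl2, Ccl6, Ccl9, Cxcl1, Cxcl9 and Cxcl10. It was at 2.43, 1.02, 1.54, 2.52 and 1.50 CPM in shPKLR livers, against 0.774, 0.459, 1.73, 1.06 and 1.16 CPM in shLUC livers. Only 2 shPKLR livers stood above all shLUC livers. The log2 fold change of 0.81 (SE 0.34) was the largest of the 10 with shPKLR and had an unadjusted p of 0.0346 but an adjusted p of 0.311 in edgeR. That adjusted p ran from 0.165 to 0.551 over the other settings tried. Ccl5 was at 1.84, 1.22, 1.72, 0.519 and 1.64 CPM in PKLR livers, against 2.48, 2.53, 2.20, 1.84 and 1.65 CPM in GFP livers. The groups met at their edges, and the log2 fold change was -0.62 (SE 0.28).

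Ccl6, the neighbour of Ccl9 and likewise a ligand of Ccr1 in mice, did not share its separation of groups. It was at 4.97, 3.20, 4.61, 2.51 and 6.47 CPM in PKLR livers, against 12.05, 6.05, 1.78, 6.59 and 1.81 CPM in GFP livers. The GFP livers held both the highest and the lowest values, and the log2 fold change was -0.39 (SE 0.50), or 0.09 without GFP replicate 1. In shPKLR livers Ccl6 ran from 2.17 to 6.37 CPM, and in shLUC livers from 3.61 to 3.92 CPM, with a log2 fold change of 0.18 (SE 0.24; edgeR adjusted p = 0.707). Ccr1 did not pass the filter, at 0.151 ± 0.0538 CPM in PKLR livers and 0.309 ± 0.242 CPM in GFP livers (SD, n = 5 each). It was at 0.0999 ± 0.121 CPM in shPKLR livers and 0.0783 ± 0.0533 CPM in shLUC livers.

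Ccl24, an eotaxin that acts on eosinophils through Ccr3, ran from 0.55 to 2.01 CPM in PKLR livers and from 0.579 to 1.71 CPM in GFP livers. It ran from 0.694 to 2.08 CPM in shPKLR livers and from 0.613 to 1.36 CPM in shLUC livers. The ranges overlapped in both experiments. Its log2 fold change was 0.39 (SE 0.40) with PKLR, and it was 0.79 without GFP replicate 1 and 0.12 without PKLR replicate 5. With shPKLR it was 0.49 (SE 0.34; edgeR adjusted p = 0.477), and 0.24 without shPKLR replicate 4. Ccr3 averaged under 0.1 CPM in every group and was not tested. The markers of eosinophils and mast cells summed to at most 0.505 CPM in any liver, and none passed the filter.

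Cxcl1, which draws neutrophils through Cxcr2, was at 4.28, 3.01, 8.25, 7.19 and 2.92 CPM in shPKLR livers, against 3.26, 2.24, 4.47, 2.78 and 2.72 CPM in shLUC livers. Only shPKLR replicates 3 and 4 stood above all shLUC livers. The log2 fold change was 0.74 (SE 0.31), with an unadjusted p of 0.0327 and an adjusted p of 0.308 in edgeR, which ran from 0.192 to 0.554 over the other settings. In the overexpression experiment Cxcl1 was at 3.42, 5.22, 2.14, 7.55 and 10.8 CPM in PKLR livers, against 8.81, 11.3, 7.98, 5.08 and 5.94 CPM in GFP livers. The ranges overlapped widely, and the log2 fold change was -0.44 (SE 0.39), or -0.78 without PKLR replicate 5 and -0.24 without PKLR replicate 3. Cxcr2 did not pass the filter in either experiment. Of the neutrophil markers 3 were tested, with medians of 0.78 with shPKLR and -0.28 with PKLR and none called by edgeR.

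Cxcl9 and Cxcl10, the interferon-induced ligands of Cxcr3 on activated T cells, had negative fold changes with PKLR, and their groups overlapped in both experiments. Cxcl9 was at 17.1, 11.8, 18.0, 8.40 and 12.9 CPM in PKLR livers, against 31.0, 25.8, 16.5, 14.9 and 9.12 CPM in GFP livers. GFP replicates 1 and 2 alone stood above all PKLR livers, and the log2 fold change was -0.51 (SE 0.32), or -0.28 without GFP replicate 1. Cxcl10 was at 6.40, 2.87, 3.97, 2.81 and 2.98 CPM in PKLR livers, against 10.2, 7.24, 3.99, 3.43 and 2.65 CPM in GFP livers. The same 2 GFP livers were the highest, and the log2 fold change was -0.53 (SE 0.38), or -0.18 without GFP replicate 1.

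In the knockdown experiment shPKLR replicate 1 had the highest Cxcl9 of all 10 livers. Cxcl9 was at 23.5, 4.76, 9.70, 9.02 and 11.1 CPM in shPKLR livers, against 8.07, 8.91, 6.26, 8.71 and 9.75 CPM in shLUC livers. The log2 fold change was 0.47 (SE 0.32; edgeR adjusted p = 0.469), and 0.05 without shPKLR replicate 1. Cxcl10 was at 5.09, 2.02, 3.65, 3.84 and 1.88 CPM in shPKLR livers, against 1.85, 2.42, 1.66, 3.21 and 1.98 CPM in shLUC livers, with a log2 fold change of 0.57 (SE 0.29; edgeR adjusted p = 0.357). Without shPKLR replicate 1 it was 0.37. The third ligand of Cxcr3, the neighbouring gene Cxcl11, had log2 fold changes of 0.60 (SE 0.39) with shPKLR and 0.14 (SE 0.18) with PKLR (edgeR adjusted p = 0.457 and 0.708). Cxcl10 shares 133 exon bases with Art3 on the opposite strand. Since the strand setting of the counting is not given in the sources used here, reads of the 2 genes may not have been separated. Art3 was at 0.696 CPM with shPKLR and 1.10 CPM with shLUC (log2 fold change -0.67, SE 0.23; edgeR adjusted p = 0.268), and at 1.18 CPM with PKLR and 1.30 CPM with GFP (-0.14, SE 0.30; adjusted p = 0.841).

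Cxcl12, which retains leukocytes in tissue through Cxcr4, had the highest level per length of the 10. It was at 262, 252, 214, 199 and 238 CPM in PKLR livers, against 211, 250.3, 271, 223 and 246 CPM in GFP livers. It was at 191, 239, 252, 179 and 232 CPM in shPKLR livers, against 228, 239, 249.9, 214 and 287 CPM in shLUC livers. The ranges overlapped in both experiments, though shPKLR replicates 1 and 4 lay below all shLUC livers and shLUC replicate 5 above all shPKLR livers. The log2 fold change was -0.04 (SE 0.10) with PKLR and -0.16 (SE 0.13; edgeR adjusted p = 0.548) with shPKLR. The receptor Cxcr4 was at 0.523 ± 0.277 CPM in PKLR livers and 1.19 ± 0.635 CPM in GFP livers (SD, n = 5 each), a log2 fold change of -1.17 (SE 0.45) that did not pass in edgeR (adjusted p = 0.183).

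Cxcl13, which guides B cells through Cxcr5, had the highest fold change of the 10 with PKLR. It was at 0.714, 0.641, 1.29, 0.305 and 1.15 CPM in PKLR livers, against 0.313, 0.237, 0.0649, 0.447 and 0.0558 CPM in GFP livers. Of the PKLR livers 4 stood above all GFP livers, and the PKLR mean was 3.68 times the GFP mean, with a log2 fold change of 1.83 (SE 0.51). GFP replicates 3 and 5 rest on 2 counts each, so these levels are known only roughly. In the knockdown experiment Cxcl13 was at 1.54, 0.211, 0.394, 1.71 and 1.13 CPM in shPKLR livers, against 0.538, 1.59, 1.17, 0.696 and 0.716 CPM in shLUC livers, with a log2 fold change of 0.13 (SE 0.49; edgeR adjusted p = 0.907). Its direction there turned without shPKLR replicate 1, shPKLR replicate 4 or shLUC replicate 1. Cxcr5 had a log2 fold change of 0.02 (SE 0.32; edgeR adjusted p = 0.978) with PKLR. B cell markers summed to between 17.7 and 29.8 CPM in PKLR livers and between 19.8 and 28.1 CPM in GFP livers, with 1 of 8 positive and Igkc past the threshold (log2 fold change -0.74, SE 0.16; edgeR adjusted p = 0.0389, or 0.0386 to 0.0830 with single libraries left out).

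Per kb of exon, the mean level over the 20 livers was 28.6 CPM for Cxcl12, 9.86 for Ccl9, 4.40 for Cxcl9, 2.92 for Cxcl1 and 2.52 for Ccl6. It was 1.66 CPM per kb for Ccl5, 1.65 for Cxcl10, 0.99 for Ccl2, 0.83 for Ccl24 and 0.65 for Cxcl13. Only Cxcl12 and Ccl9 were apart in this order: the lowest liver for Cxcl12 was at 21.9 CPM per kb and the highest for Ccl9 at 21.1. The ranges of the other 8 neighbouring pairs overlapped. Dividing by the longest transcript in place of all exons put Ccl6 before Cxcl1 and left the other 8 in place.

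**Figure D3:**
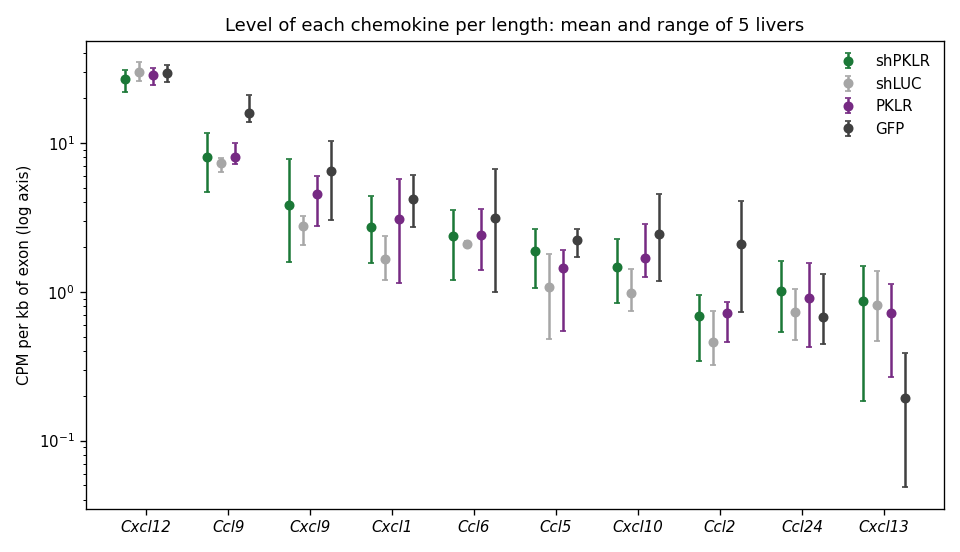
Level of each chemokine in CPM per kb of exon (vertical log axis) as mean and range of the 5 livers in each group, ordered by the mean of 20 livers. Cxcl12 lies highest, at 21.9 CPM per kb or more in all livers, and Ccl9 averages 16.0 CPM per kb with GFP and between 7.28 and 8.09 in the other groups.

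The other chemokine ligands had mostly positive fold changes with shPKLR and mostly negative ones with PKLR. Of 31 listed, 10 passed the filter in the knockdown experiment and 13 in the overexpression experiment. With shPKLR 9 of the 10 fold changes were positive, the median was 0.58, and edgeR called none. An unadjusted p under 0.05 in edgeR was reached by 3 of the 10 and by 15.0% of all genes. DESeq2 called 260 of all 15611 genes and 1 of these ligands, Ccl19, a ligand of Ccr7 in lymphoid tissue. Ccl19 ran from 1.47 to 2.77 CPM in shPKLR livers and from 0.632 to 1.06 CPM in shLUC livers, so the groups did not overlap, as for 1.24% of all genes in this direction (log2 fold change 1.14, SE 0.24; edgeR adjusted p = 0.137, DESeq2 adjusted p = 0.00372). Ccl25, the ligand of Ccr9, did not overlap either, at 5.42 to 8.69 CPM in shPKLR livers and 3.31 to 5.35 CPM in shLUC livers (log2 fold change 0.58, SE 0.18; edgeR adjusted p = 0.238). Ccl27a had a log2 fold change of 0.58 (SE 0.23; edgeR adjusted p = 0.293), and its near-identical copies make its counts uncertain.

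With PKLR 2 of the 13 other ligands were positive, the median was -0.62 and edgeR again called none. DESeq2 called 1, against 1107 of all 15842 genes. An unadjusted p under 0.05 in edgeR was reached by 5 of the 13 and by 18.8% of all genes. The smallest p-values were those of Pf4, a platelet chemokine, Ccl22, which draws regulatory T cells through Ccr4, and Cx3cl1, the membrane-bound ligand of Cx3cr1. Pf4 was at 0.433 ± 0.0717 CPM in PKLR livers and 0.862 ± 0.400 CPM in GFP livers (SD, n = 5 each; log2 fold change -0.99, SE 0.31; edgeR adjusted p = 0.113). Ccl22 was at 0.237 ± 0.0879 CPM in PKLR livers and 0.679 ± 0.465 CPM in GFP livers (log2 fold change -1.52, SE 0.47; edgeR adjusted p = 0.114). Cx3cl1 was at 0.818 ± 0.221 CPM in PKLR livers and 1.56 ± 0.666 CPM in GFP livers (log2 fold change -0.93, SE 0.29; edgeR adjusted p = 0.115), and it passed in DESeq2 (adjusted p = 0.0446).

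Of 24 receptors listed, 13 were tested in the knockdown experiment, with 11 positive and a median of 0.30. In the overexpression experiment 15 were tested, with 2 positive and a median of -0.28. EdgeR called none in either. In edgeR 1 of the 13 and 3 of the 15 had an unadjusted p under 0.05, against 15.0% and 18.8% of all genes. DESeq2 called 0 and 2, against 260 of all 15611 and 1107 of all 15842 genes. The receptor with the lowest fold change with PKLR was Cx3cr1, carried by monocytes and some macrophages. It was at 1.30 ± 0.626 CPM in PKLR livers and 3.52 ± 1.97 CPM in GFP livers (SD, n = 5 each; log2 fold change -1.43, SE 0.44; edgeR adjusted p = 0.113, DESeq2 adjusted p = 0.0148). With shPKLR it was at 0.56 (SE 0.24; edgeR adjusted p = 0.316), next to Cxcr3 at 0.70 (SE 0.37; adjusted p = 0.376) and the scavenger receptor Ackr2 at -0.51 (SE 0.24; adjusted p = 0.346).

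**Figure D4:**
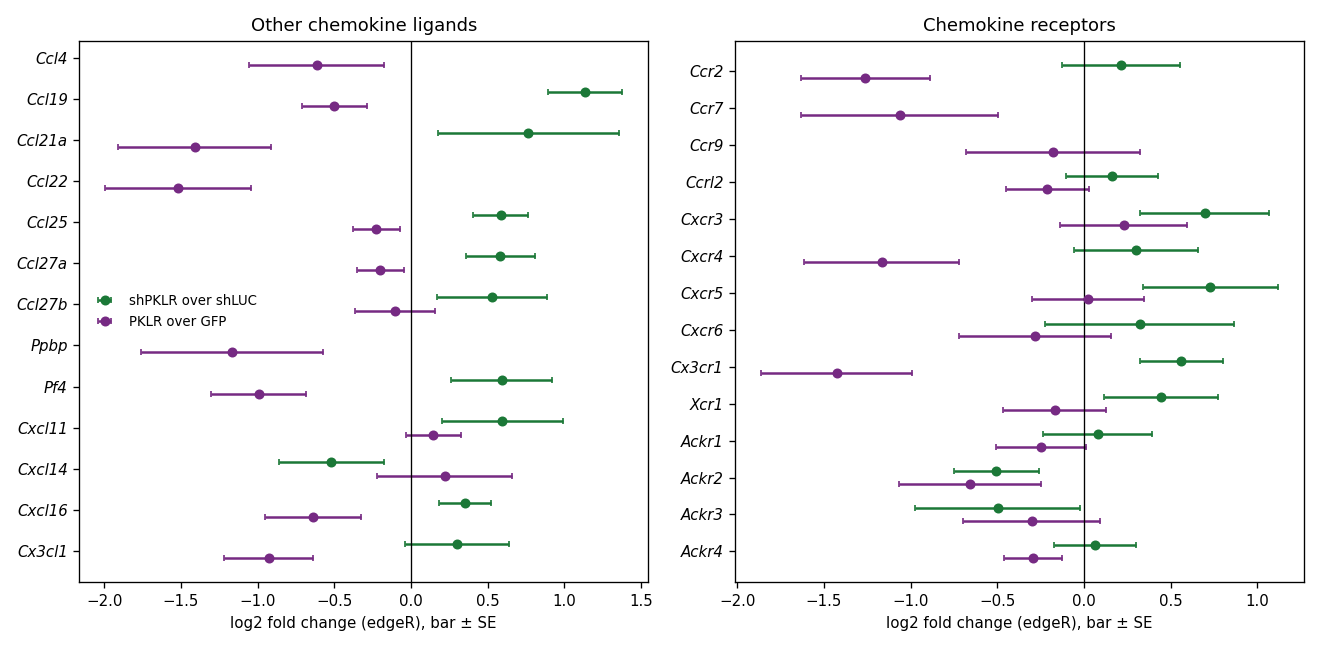
Log2 fold change (horizontal axis) with its SE of the other chemokine ligands (left) and of chemokine receptors (right), all past the filter on low counts, for shPKLR over shLUC (green) and PKLR over GFP (purple). With shPKLR 9 of 10 ligands lie above 0, and with PKLR 2 of 13 do.

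Lists of cytokine, NF-kB and interferon genes, which act upstream of many chemokines, gave few calls in edgeR. Of 22 tested cytokine and NF-kB genes the median fold change was 0.07 with shPKLR and -0.10 with PKLR. With shPKLR an unadjusted p under 0.05 in edgeR was reached by 5 of the 22 and by 15.0% of all genes. DESeq2 called 3, against 260 of all 15611 genes, and limma-voom none. EdgeR called none. The nearest was Il1r1, the receptor of interleukin 1, at 30.3 ± 5.20 CPM in shPKLR livers and 16.5 ± 1.56 CPM in shLUC livers (SD, n = 5 each; log2 fold change 0.88, SE 0.13; edgeR adjusted p = 0.0509). It passed in DESeq2, with RLE size factors (edgeR adjusted p = 0.0471), with no filter on low counts (0.0312), and without shPKLR replicate 1 (0.0269) or shPKLR replicate 3 (0.0497). It did not pass in limma-voom, with the replicate block or in 1 fit of all 20 libraries. Nor did it pass with over 1 CPM required in at least 5 libraries, or with any other single library left out. Icam1, an adhesion molecule, was at 0.73 (SE 0.19; edgeR adjusted p = 0.204), and Nfkbiz, a nuclear NF-kB regulator, at 0.60 (SE 0.16; adjusted p = 0.205). With PKLR the TNF receptor gene Tnfrsf1a rose, at 94.4 ± 10.8 CPM in PKLR livers and 68.2 ± 5.03 CPM in GFP livers (log2 fold change 0.47, SE 0.09; edgeR adjusted p = 0.0240). The call was lost without GFP replicate 4, PKLR replicate 3 or PKLR replicate 5.

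Of 25 tested interferon genes 20 were positive with shPKLR (median 0.39) and 19 with PKLR (median 0.20). EdgeR called none with shPKLR, where an unadjusted p under 0.05 was reached by 9 of the 25 and by 15.0% of all genes. In limma-voom 4 of the 25 and 2515 of all 15611 genes reached it, and none of the 25 was called. DESeq2 called 2, against 260 of all 15611 genes. Mx1 and Oas2, antiviral effectors, were at 1.49 (SE 0.38; edgeR adjusted p = 0.198) and 1.66 (SE 0.46; adjusted p = 0.222), and Socs1, a feedback inhibitor, at 0.91 (SE 0.31; adjusted p = 0.268). With PKLR an unadjusted p under 0.05 in edgeR was reached by 9 of the 25 and by 18.8% of all genes. EdgeR called 1 with PKLR, with a positive fold change and values not reported here. DESeq2 called 6, against 1107 of all 15842 genes, and limma-voom none. Irf9, a transcription factor of the interferon response, was at 0.44 with PKLR (SE 0.11; edgeR adjusted p = 0.0690), and Iigp1, an interferon-induced GTPase, at 0.51 (SE 0.14; adjusted p = 0.0817). Cxcl9 and Cxcl10 had negative fold changes in the same comparison.

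**Figure D5:**
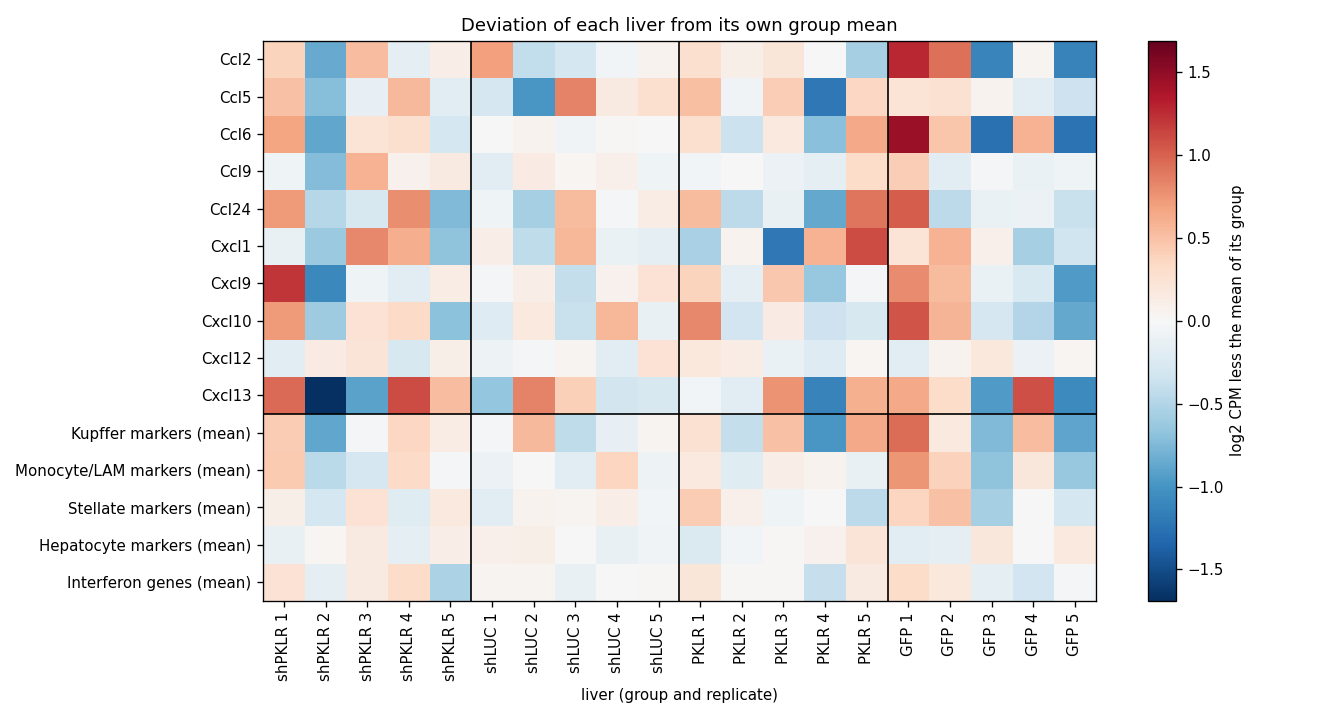
Deviation of each liver from its group mean in log2 CPM (colour), for the 10 chemokines (upper rows) and the means of 4 marker lists and of the interferon genes (lower rows), with livers on the horizontal axis. Genes averaging under 1 CPM in either experiment were left out of these means. The monocyte row holds 5 of 13 markers and the interferon row 24 of 26 genes. GFP replicate 1 is above its group mean for 9 of 10 chemokines, and shPKLR replicate 2, PKLR replicate 4 and GFP replicate 5 are above theirs for 1 of 10.

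Within groups, livers tended to be high or low for several chemokines at once. After subtracting the group mean of log2 CPM (prior count 2), GFP replicate 1 was above its group for 9 of the 10 genes, by 0.69 on average. GFP replicate 5 was above for 1, at -0.64 on average, and shPKLR replicate 2 and PKLR replicate 4 were also above for 1, at -0.75 and -0.47. Kupffer cell markers summed to 145 CPM in PKLR replicate 4, 182 CPM in shPKLR replicate 2 and 158 CPM in GFP replicate 5. In GFP replicate 1 they summed to 543 CPM. In shLUC replicate 2, the lowest of its group for the chemokines (-0.11 on average), they summed to 346 CPM, its group's highest. In shLUC replicate 3, the highest (0.13 on average), they summed to 193 CPM, the lowest. The part of Kupffer cells in these deviations was not tested. Across groups the Kupffer sum ran from 145 to 444 CPM in PKLR livers and from 157 to 543 CPM in GFP livers. It ran from 182 to 450 CPM in shPKLR livers and from 193 to 346 CPM in shLUC livers. Of the Kupffer markers edgeR called none in either experiment, and DESeq2 called 1 with PKLR. Those with the smallest p in edgeR with PKLR differed in direction. Cd163 was at 1.46 (SE 0.41; edgeR adjusted p = 0.0965), Marco at -1.98 (SE 0.79; adjusted p = 0.210) and Timd4 at 0.77 (SE 0.36; adjusted p = 0.269).

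Over the 45 pairs of the 10 genes, Pearson's r of these deviations across 20 livers ran from -0.43 to 0.77 with a median of 0.35, and 35 were above 0. Values of 1 liver share its library and its cells, so r is a description. Cxcl9 and Cxcl10, whose promoters are printed above, had the highest value, 0.77. Ccl5 and Ccl24 followed at 0.747 and Ccl2 and Ccl6 at 0.745, while Ccl9 and Ccl6 were at 0.47. Against the mean of the Kupffer markers Ccl6 was highest at 0.90, followed by Cxcl13 at 0.84 and Cxcl9 at 0.74. Ccl9 was at 0.48 and Cxcl12 lowest at -0.29. Of the 13 monocyte and lipid-associated macrophage markers, only 5 passed the filter and averaged 1 CPM or more in both experiments. Against the mean of these 5, Ccl6 was highest at 0.83, followed by Cxcl10 and Ccl2 at 0.76 each. Ccl9 was at 0.23 there and Cxcl12 lowest at -0.63. Ccl2 was at 0.78 with the stellate cell and fibroblast markers, whose sum ran from 183 to 330 CPM in PKLR livers and from 286 to 577 CPM in GFP livers. Of these 12 genes 11 had a negative fold change with PKLR, with a median of -0.76. An unadjusted p under 0.05 in edgeR was reached by 10 of the 12 and by 18.8% of all genes. EdgeR called Rgs5 (log2 fold change -1.12, SE 0.22; edgeR adjusted p = 0.0309) and Colec11 (-0.73, SE 0.15; adjusted p = 0.0360), DESeq2 called 8 and limma-voom 3. Of all 15842 genes edgeR called 322, DESeq2 1107 and limma-voom 297. With single libraries left out Rgs5 and Colec11 passed in 5 and 3 of 10 edgeR fits. With shPKLR 8 of the 12 were positive, with a median of 0.13 and none called by edgeR. Whether these cells bear on the chemokine values was not tested.

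Of 11452 genes compared (mean at or over 1 CPM in both experiments), those whose deviations were most like Ccl9 were Adora2a (r = 0.72, rho = 0.56), Lrriq3 (r = 0.72), Rab31 (r = 0.71), Hmox1 (r = 0.70) and Dzip3 (r = 0.69). Without shPKLR replicates 2 and 3, the farthest livers for Ccl9, these fell to between 0.44 and 0.52, so they rest on those 2 livers. Ccl6 was most like Rgs2 (r = 0.96) and Clec12a (r = 0.95), both of which stayed at 0.93 or above without GFP replicates 1 and 3. Cxcl10 was most like Ifi206 (r = 0.92) and Ccdc34 (r = 0.86), and Cxcl9 like Rbl1 and Cd53 (r = 0.89 each). Cxcl13 was most like Gng2 and Rac2 (r = 0.92 each), Ccl2 like Ier5 (r = 0.86) and Tnfaip8 (r = 0.85), and Cxcl12 like Exph5 (r = 0.86) and Fads6 (r = 0.85). Cxcl1 was most like Efna1 (r = 0.81) and Pdia5 (r = 0.77), Ccl5 like Zbtb46 (r = 0.80) and Ppp1r16b (r = 0.79), and Ccl24 like Pilrb1 (r = 0.79) and Cnpy4 (r = 0.78).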

How the data were processed

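Raw read counts per gene, in whole numbers, were deposited by the authors as 2 tables, 1 for each experiment. The submitters' processing notes name HISAT2, DESeq2, GRCm38 and mm10, with no version or role. Which program counted the reads, with which annotation and strand setting, is not given in the sources used here. Column names gave each library's group and replicate, with 0 value columns left unmatched. Gene identifiers were matched to GENCODE symbols on GRCm38 for 26859 of 27052 genes (knockdown) and 26094 of 26286 (overexpression).

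The counts were tested with edgeR 4.0.16 (robust quasi-likelihood, filterByExpr, TMM) in R 4.3.3, each experiment on its own, and p-values were adjusted by Benjamini-Hochberg over 15611 and 15842 genes. The SE is the log2 fold change divided by the square root of F. DESeq2 1.42.0, limma-voom (limma 3.58.1), RLE factors, other filters, a replicate block, a joint fit of the 20 libraries, and leaving out single libraries were the alternatives. The fits were tested on simulated counts. Sequences are RefSeq promoters of GRCm38.p6.

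The members and lists were chosen with earlier results of these data known. Named are the 10 chemokines, Pklr, genes overlapping a member, the called genes of each list filled up to the 3 smallest p, and the genes most like each member (5 for Ccl9, 2 for the others); of the cell marker lists the text gives those beside a result. Values of 2 genes counted in the lists are not reported here. Labels give 1 liver per library without saying whether animals were pooled, so p-values measure the spread between these samples.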

Additional observations from a re-analysis of the deposited data

Results flagged for a closer look

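Within groups of 5 livers, 40 sets of values (10 chemokines in 4 groups) were checked for a liver far from its group, and 3 stood out, where chance gives about 1 in 20. Ccl9 was at 30.3 CPM in PKLR replicate 5, above the other PKLR livers. Ccl9 was at 64.2 CPM in GFP replicate 1, above the other GFP livers. Ccl24 was at 1.71 CPM in GFP replicate 1, above the other GFP livers.

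For Ccl5 every shPKLR liver lay above the shLUC mean of log2 CPM and every PKLR liver below the GFP mean. Its log2 fold change was 0.81 with shPKLR, which did not pass (edgeR adjusted p = 0.311), and -0.62 with PKLR. It was 1 of 7 chemokines with a positive fold change with shPKLR and a negative one with PKLR. The difference between the experiments was not tested.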

How the results depend on the processing

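Of the settings tried for single chemokines, 163 in the knockdown kept direction and side of the threshold, and 164 in overexpression, where the 10 were not tested, kept direction. Direction turned in the knockdown for Cxcl13 with the replicate block (-0.0236), for Cxcl13 with libraries left out (range -0.189 to 0.392), for Ccl6 (-0.0059 to 0.342) and for Ccl9 (-0.011 to 0.293). In overexpression it turned with libraries left out for Ccl6 (-0.612 to 0.0929) and Cxcl12 (-0.0893 to 0.0092). The cause was not tested.

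Genes called in the knockdown numbered 1, against 7 with RLE factors, 17 with no filter, 260 with DESeq2, 8 with limma-voom, 3 with the replicate block, 114 in 1 fit of all 20 libraries and 1 to 12 with a library left out. In overexpression 322 were called, against 1107 with DESeq2, 544 with the replicate block and 128 to 469 with a library left out. In the 4 ligand, receptor and signalling lists the knockdown gave 0 calls, against 1 with RLE factors, 1 with no filter, 6 with DESeq2, 2 in the fit of all 20 libraries and 0 to 1 with a library left out. Overexpression gave 2 calls there, against 1 with over 1 CPM in at least 5 libraries, 10 with DESeq2, 1 with limma-voom, 10 with the replicate block and 0 to 4 with a library left out. Of the 23 genes named as most like a chemokine, 8 were also chosen by Spearman's rho. Deviations of livers with the same replicate number correlated between -0.20 and 0.35 in the knockdown and between -0.11 and 0.26 in overexpression. There 2 of 10 and 3 of 10 libraries correlated best with their own number. These values show no clear pairing and cannot exclude one, and the replicate block raised the calls in overexpression from 322 to 544. Cxcl13 had 2 counts in each of GFP replicates 3 and 5, which limits its level there.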
